A study of Mus musculus with 12 samples.

Results

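Hepatocyte identity transcription factors are the 9 genes Hnf4a, Foxa1, Foxa2, Foxa3, Cebpa, Prox1, Nr1i2, Nr1i3 and Onecut1. They were taken as a fixed list of names and found among the 27179 genes of the count table through their Entrez identifiers. All 9 were present, and all 9 were among the 13947 genes that passed the filter on low counts, each with at least 104 counts in every library. Bulk liver RNA of 12 male mice was measured, 1 library per mouse and 3 mice in each of 4 groups. Mice were fed chow (CD) or a low-protein diet (LPD), and on each diet they were injected with empty vector (Vec) or with the oncogene pair c-MET/β-catenin. The groups carry the diet and the injection in their names, such as CD Vec. Titles in the labels call the control mice WT, and their injection with vector is taken from the study. The oncogenes were human c-MET and a β-catenin without its N-terminal regulatory region, carried to a fraction of hepatocytes by hydrodynamic tail vein injection and inserted by Sleeping Beauty transposase, which gives hepatocellular carcinoma. Harvest of every group was set by the end point of the CD c-MET/β-catenin mice, so that time since injection was shared and tumor burden was not. The labels name no separation of tumor from surrounding liver. The mice were young adults, fed their diet from before the injection, and the study names them both as C57/Bl3 and as of a mixed background of 129/Ola and C57BL/6. The labels give the cell type as hepatocyte, although RNA was extracted from liver tissue. The 10 hepatocyte markers, led by Alb, summed to between 96500 and 166000 CPM (counts scaled to library size) in every library.

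Hepatocytes keep their character through a network of transcription factors that bind together at the enhancers of liver genes and at each other's promoters. Foxa1, Foxa2 and Foxa3 are forkhead factors that open chromatin, Hnf4a is a nuclear receptor that maintains the differentiated state, Cebpa is a leucine zipper factor of metabolic genes and of growth arrest, Onecut1 (HNF6) acts in hepatocyte and bile duct development, and Prox1 is a homeobox factor of the early liver and of lymphatic endothelium. Nr1i2 (PXR) and Nr1i3 (CAR) are nuclear receptors that sense foreign compounds and bile acids, pair with Rxra and induce drug-metabolizing enzymes.

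The libraries held 19476209 to 31990267 counts. Each value below was scaled by the trimmed mean of M values (TMM), and differences were tested with edgeR's quasi-likelihood test and Benjamini-Hochberg adjustment over all genes tested. A gene is called where its adjusted p is under 0.05. Replicates were separate mice. Expression of the 10 β-catenin targets on the list checked the labels, because transgene transcripts were not analysed here. Of these, the oncogenes raised 9 on CD and 4 on LPD, led by Nkd1, Lgr5, Axin2 and Glul on CD. CD Vec replicate 2 stood apart from the other libraries on the second principal component. Numbers in the header of the count table fall in 3 runs, which the labels do not explain. The first run holds only CD c-MET/β-catenin replicates 1 and 2, and in the third are LPD Vec replicate 1 with replicates 1 and 2 of CD Vec. The second run holds the other 7 libraries, with only 1 from each CD group. The runs and the groups are therefore partly confounded, and values within the second run or with a term for the runs stand beside the calls of members. Since the first run holds 1 group only, the term leaves replicate 3 as the single library of CD c-MET/β-catenin in every comparison with that group, and a call kept under it rests on 1 library that is assumed to vary like the others.

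Per length of exon, Cebpa and Hnf4a were the most abundant of the 9 in every group. In CD Vec, Cebpa stood at 291.8 ± 34.4 RPKM (reads scaled to exon length in kilobases and to library size; mean ± SD, n = 3 here and throughout) and Hnf4a at 175.3 ± 43.3 RPKM. Foxa3 followed at 46.6 ± 29.8 RPKM, Nr1i2 at 36.8 ± 1.42, Nr1i3 at 21.1 ± 3.38, Foxa2 at 19.3 ± 4.01, Onecut1 at 15.6 ± 6.27, Foxa1 at 8.19 ± 1.79 and Prox1 at 5.33 ± 0.818 RPKM. Cebpa was above Hnf4a in all CD Vec libraries, Hnf4a was above Foxa3, and Nr1i2 was above Nr1i3. The other neighbours in that order overlapped between libraries, so their order is not separated by the replicates.

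In CD c-MET/β-catenin livers the order was different at its top and bottom. Hnf4a came first at 164.8 ± 13.7 RPKM and Cebpa second at 130.2 ± 35.3 RPKM, with overlapping libraries. Onecut1 came last at 2.38 ± 0.397 RPKM, and every library was below every library of Prox1, the next lowest at 4.62 ± 0.454 RPKM. On LPD, Cebpa was again above Hnf4a in all libraries of both groups, at 248.0 ± 4.78 against 171.8 ± 24.1 RPKM in Vec and at 222.8 ± 9.49 against 166.4 ± 19.1 RPKM in c-MET/β-catenin. Onecut1 was last in LPD Vec (4.06 ± 2.88 RPKM), where its libraries overlapped those of Foxa1, and seventh in LPD c-MET/β-catenin (8.22 ± 2.85 RPKM). With the longest transcript in place of all exons as the length, Nr1i3 stood at 31.3 in place of 21.1 RPKM in CD Vec, and only the order of Foxa2 and Nr1i3 in LPD c-MET/β-catenin changed.

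**Figure D1:**
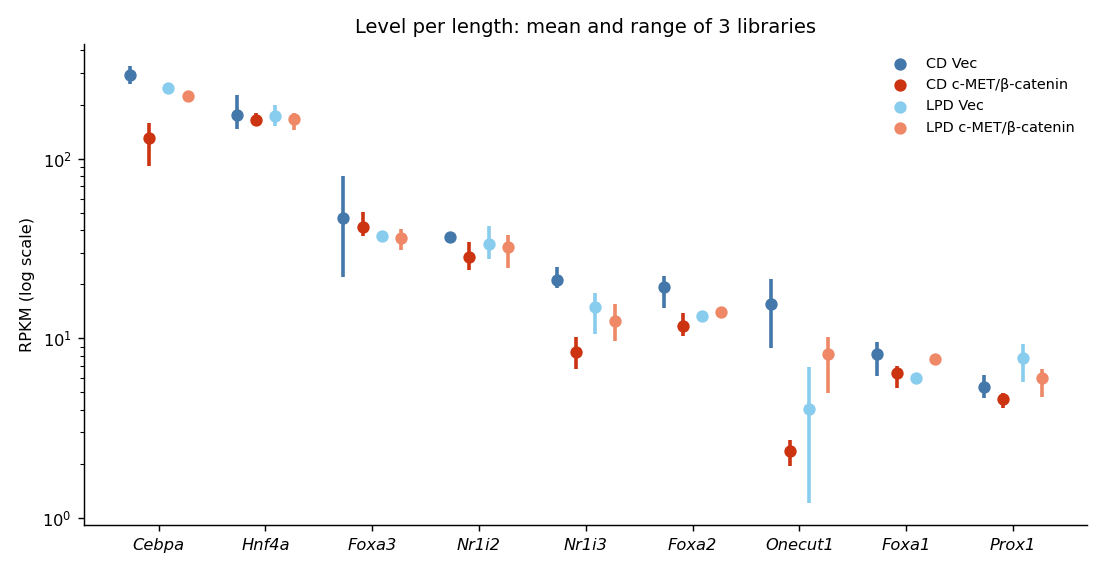
Level per exon length (RPKM, log axis) of the 9 transcription factors in the 4 groups; points are means and vertical lines the range of 3 libraries. Cebpa and Hnf4a lie above the other 7 in every group, and Onecut1 has the widest ratio between group means, from 2.38 to 15.6 RPKM.

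The first question was whether the oncogenes changed these factors in mice on CD. Compared with Vec, the oncogene livers had lower Onecut1, Nr1i3, Cebpa and Foxa2, by 6.54-fold, 2.52-fold, 2.24-fold and 1.64-fold, and no member was higher. Hnf4a, Foxa1, Foxa3, Prox1 and Nr1i2 were not called. Thus 4 of 9 members were called, all lower, where 35.4% of all genes tested were called and 16.7% were called lower. The median log2 fold change of the 9 was -0.37 against -0.01 over all genes. In bulk tissue, fewer cells of a type and less RNA per cell cannot be told apart.

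Onecut1 showed the largest difference. The CD Vec libraries held 36.5, 87.6 and 68.0 CPM, and the CD c-MET/β-catenin libraries 11.2, 7.996 and 10.1 CPM. The groups did not overlap, and the spread was wide only in Vec. The log2 fold change was -2.71 ± 0.54 (SE) with an adjusted p of 0.00268, and it was called in each of 12 fits that left out 1 library. A term for the runs gave -3.44 with an adjusted p of 0.055, and the single pair of CD libraries in the second run differed by -2.75.

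Cebpa, which restrains hepatocyte proliferation and drives metabolic genes, stood at 865.8, 755.9 and 685.8 CPM in CD Vec and at 238.9, 417.7 and 372.9 CPM in CD c-MET/β-catenin. All oncogene libraries lay below all Vec libraries. Its log2 fold change was -1.16 ± 0.19 (adjusted p = 0.000615). With a term for the runs it was -0.95 (adjusted p = 0.107), and within the second run it was -0.88. The 7 mitotic genes, Mki67, Top2a and Cdk1 among them, summed to 3.24 to 12.5 CPM in CD Vec, whereas CD c-MET/β-catenin libraries held 124 to 179 CPM, and their part in the Cebpa difference was not tested.

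Nr1i3 held 83.9, 110.5 and 85.6 CPM in CD Vec and 36.4, 45.0 and 29.7 CPM in CD c-MET/β-catenin, again without overlap. The log2 fold change was -1.33 ± 0.23 (adjusted p = 0.00105). A term for the runs gave -1.45 with an adjusted p of 0.0391, which rests on CD c-MET/β-catenin replicate 3, the lowest Nr1i3 library of that group. Its last exons overlap Tomm40l, a gene of the mitochondrial import pore family that reached 2074 counts in a library and itself fell by 0.60 on the log2 scale (adjusted p = 0.0241). Because the strand setting of the counting is not stated, reads from the shared stretch cannot be assigned to either gene with certainty.

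Foxa2, the forkhead factor of bile acid and lipid genes, held 35.0, 49.4 and 53.0 CPM in CD Vec and 24.3, 26.5 and 33.0 CPM in CD c-MET/β-catenin. The highest oncogene library lay just under the lowest Vec library. The log2 fold change was -0.71 ± 0.16 (adjusted p = 0.00454), with -0.59 (adjusted p = 0.155) under a term for the runs and -0.68 within the second run. Its relatives gave smaller values. Foxa1 held 20.6, 29.2 and 32.0 CPM in Vec and 17.6, 23.1 and 23.3 CPM in c-MET/β-catenin, with overlap and a log2 fold change of -0.35 ± 0.17 (adjusted p = 0.117). Without CD Vec replicate 1, its lowest Vec library, Foxa1 was called at -0.52 (adjusted p = 0.02). Foxa3 held 44.8, 162.3 and 77.4 CPM in Vec, where the highest value belonged to the library that stood apart, and 78.5, 102.4 and 75.3 CPM in c-MET/β-catenin. Its log2 fold change of -0.15 ± 0.34 turned to 0.47 without CD Vec replicate 2, and neither was called.

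Hnf4a was not called in any comparison. It held 705.7, 1087 and 746.5 CPM in CD Vec, 864.1, 732.3 and 789.8 CPM in CD c-MET/β-catenin, 960.0, 735.5 and 793.9 CPM in LPD Vec, and 698.3, 869.8 and 842.4 CPM in LPD c-MET/β-catenin. All 4 groups overlapped, and the group means lay between 795.4 and 846.4 CPM. On CD its log2 fold change was -0.09 ± 0.18 (adjusted p = 0.735). The antisense transcript Hnf4aos, named here after its values were seen because it overlaps Hnf4a, was far lower in expression, at 3.41 to 5.10 CPM in CD Vec, against 0.231 to 0.530 CPM in the oncogene group. Its log2 fold change on CD was -3.53 ± 0.31 (adjusted p = 2.36e-05), and reads of the overlap cannot be told apart without strand.

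Nr1i2 held 98.2, 91.4 and 92.5 CPM in CD Vec and 87.9, 69.3 and 61.5 CPM in CD c-MET/β-catenin. These groups did not overlap, and the log2 fold change of -0.37 ± 0.20 was not called (adjusted p = 0.166). Prox1 held 52.5, 39.3 and 42.4 CPM against 41.9, 39.8 and 34.5 CPM, with overlap and a log2 fold change of -0.21 ± 0.19 (adjusted p = 0.432). Prox1 also marks lymphatic endothelium, whose 6 markers summed to 51.2 to 103 CPM in CD Vec but 144 to 236 CPM in the oncogene libraries, with 1 of the 6 at 0 throughout. Only 3 of the 6 passed the filter on low counts. Most of the sum was Reln, with means of 51.4 and 148.1 CPM (adjusted p = 0.00178), whereas Lyve1 (6.71 and 12.8 CPM) and Flt4 (21.8 and 17.2 CPM) were not called. Their part in the Prox1 level was not tested. Of the 5 members not called on CD, a term for the runs moved Prox1 to -0.56 (adjusted p = 0.358) and Hnf4a to 0.10 (adjusted p = 0.891), and none was called.

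**Figure D2:**
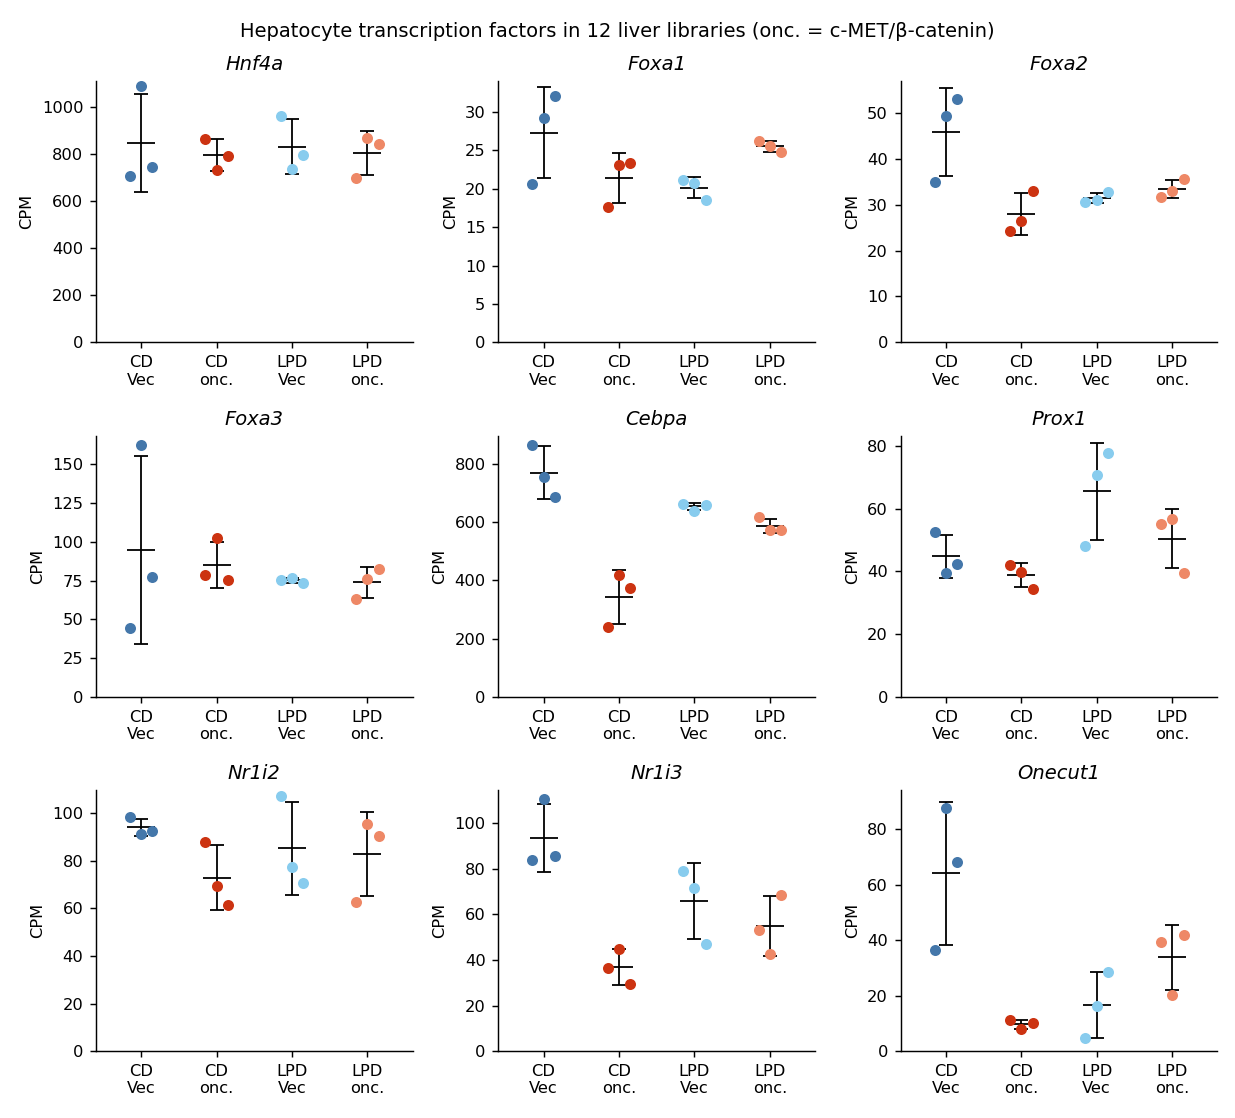
CPM of each transcription factor in the 12 libraries, with black bars for mean ± SD of 3 libraries and each axis starting at 0; onc. stands for c-MET/β-catenin. Cebpa, Nr1i3, Foxa2 and Onecut1 show CD c-MET/β-catenin libraries below all CD Vec libraries, as does Nr1i2, which was not called. The Hnf4a groups overlap throughout.

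Onecut1 and Foxa2 are also expressed in other cells of the liver, so the markers of those cells were summed. Cholangiocyte markers summed to 37.4 to 46.4 CPM in CD Vec and to 121 to 382 CPM in the CD oncogene group, and most of the sum was the secreted protein Spp1, with means of 34.7 and 253.1 CPM. Spp1 and the keratin Krt19 (0.761 and 5.76 CPM) were the 2 called higher of the 6 tested, whereas Epcam (1.37 and 0.946 CPM) and Sox9 (5.35 and 4.002 CPM) were not called, and none of the 7 markers was at 0. Stellate and fibroblast markers summed to 200 to 253 CPM and to 154 to 607 CPM, with 4 of 8 called higher, led by Col1a1 (log2 fold change 3.92, adjusted p = 0.000985), and 2 lower, Dcn (-1.30, adjusted p = 0.000326) and Lrat (-1.42, adjusted p = 0.00293). Endothelial markers summed to 190 to 343 CPM and to 170 to 224 CPM, with 3 of 7 called lower, namely Clec4g (-1.09, adjusted p = 0.000695), Ptprb (-0.997, adjusted p = 0.00286) and Eng (-0.59, adjusted p = 0.00618). Among those not called, Kdr also had a lower mean (41.3 and 21.3 CPM). Higher means in the oncogene group were those of Cdh5 (10.5 and 17.0 CPM), Pecam1 (17.2 and 21.7 CPM) and Stab2 (30.5 and 32.0 CPM). Kupffer cell and macrophage markers summed to 103 to 238 CPM and to 187 to 334 CPM, with 1 of 7 called higher, Cd68 (1.71, adjusted p = 0.000349). T and NK cell, B cell and neutrophil markers each summed to at most 15.7 CPM in any library, with Cd8a (3.72, adjusted p = 0.0013) and the neutrophil markers S100a8 and S100a9 called higher and Cd4 lower. Of the 10 hepatocyte markers, 3 were called higher and 3 lower, with a median log2 fold change of 0.13. The part of these cell types in the 4 calls was not tested.

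The sequences upstream of the 4 members that were lower on CD are shown because they share that direction in that comparison, with that of Hnf4a, which was not called, beside them. They are taken from RefSeq (GRCm38.p6) and end at the first base before the gene's outermost annotated start. Onecut1 lies at chr9:74861671-74861920 on the plus strand, Cebpa at chr7:35119043-35119292 on the plus strand, Nr1i3 at chr1:171213720-171213933 on the plus strand, Foxa2 at chr2:148046970-148047219 on the minus strand and Hnf4a at chr2:163506607-163506810 on the plus strand. Capitals mark letters that match a searched motif.
Onecut1: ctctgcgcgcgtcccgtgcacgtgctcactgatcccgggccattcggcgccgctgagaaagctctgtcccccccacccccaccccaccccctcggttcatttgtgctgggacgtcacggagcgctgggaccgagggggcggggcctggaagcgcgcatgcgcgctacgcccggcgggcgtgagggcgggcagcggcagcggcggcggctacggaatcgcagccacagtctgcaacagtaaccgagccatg
Cebpa: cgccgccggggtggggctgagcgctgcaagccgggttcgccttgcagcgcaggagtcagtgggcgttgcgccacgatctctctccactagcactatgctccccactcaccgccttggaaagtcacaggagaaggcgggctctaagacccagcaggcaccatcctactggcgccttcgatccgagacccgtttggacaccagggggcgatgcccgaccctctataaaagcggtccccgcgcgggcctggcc
Nr1i3: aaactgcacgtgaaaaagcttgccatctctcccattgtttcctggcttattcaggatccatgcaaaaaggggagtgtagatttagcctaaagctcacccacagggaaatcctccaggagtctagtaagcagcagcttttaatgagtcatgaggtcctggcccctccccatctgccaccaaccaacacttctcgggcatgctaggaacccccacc
Foxa2: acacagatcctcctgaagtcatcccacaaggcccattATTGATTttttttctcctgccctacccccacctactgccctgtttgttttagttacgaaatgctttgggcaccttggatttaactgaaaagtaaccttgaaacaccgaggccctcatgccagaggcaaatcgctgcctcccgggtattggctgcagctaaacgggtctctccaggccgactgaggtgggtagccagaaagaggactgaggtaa
Hnf4a: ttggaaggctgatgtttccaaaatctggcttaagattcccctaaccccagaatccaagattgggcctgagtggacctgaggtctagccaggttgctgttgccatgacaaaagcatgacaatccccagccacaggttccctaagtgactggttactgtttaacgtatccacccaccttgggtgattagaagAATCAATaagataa
Motifs were searched on both strands in the 250 bases before each of the 13 annotated starts of the members, and positions are counted from the annotated start that the window precedes. The runs printed for Hnf4a and Nr1i3 end earlier, at the gene's outermost bound, so their positions do not count from the last printed letter. The Onecut letters ATTGATT lay at positions -213 to -207 from a start of Foxa2 and, on the other strand, at -60 to -54 from the first start of Hnf4a, and they occur in 2.61% of all 32851 windows of that length. The Foxa letters TGTTTAC lay before Foxa1 and occur in 3.17% of windows. A second Foxa form, TGTTTGC, lay at 2 places before Nr1i2 and before the second start of Prox1, with a share of 4.3%. Nr1i2 also held the Tcf/Lef letters CTTTGAA, which 4.46% of windows hold. The windows of Cebpa, Nr1i3, Onecut1 and Foxa3 held none of the searched motifs. The searched set further held the Tcf/Lef form CTTTGAT, present in 3.21% of windows, and the Hnf4 letters CAAAGTCCA, present in 0.384%. For the C/EBP family it held TTGCGCAA, present in 0.164% of windows, as well as the related form TTGCGTCA, present in 0.438%. For Hnf1 it held TTAATNATT, present in 1.4%. A match describes letters and is not a bound site.

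The second question was whether the same oncogenes changed the members on LPD. Between the groups fed LPD, edgeR called none of the 9, where 1.32% of all genes were called. None had an unadjusted p under 0.05 either, where 1545 of all 13947 genes did. DESeq2 called 0 of 9, and 471 of the 16299 genes that it tested. The median log2 fold change of the 9 was -0.04 against 0.01 over all genes.

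Cebpa held 661.8, 639.4 and 659.9 CPM in LPD Vec and 616.1, 574.5 and 571.3 CPM in LPD c-MET/β-catenin. The groups did not overlap, but the log2 fold change was -0.15 ± 0.18 (adjusted p = 0.873). Onecut1 held 4.99, 16.5 and 28.7 CPM in LPD Vec and 39.4, 20.3 and 41.7 CPM in LPD c-MET/β-catenin. The LPD Vec libraries differed by more than 5-fold among themselves, the groups overlapped, and the log2 fold change was 1.02 ± 0.51 (adjusted p = 0.51). Foxa2 held 30.6, 31.1 and 32.6 CPM against 31.6, 33.0 and 35.5 CPM, which overlapped (log2 fold change 0.09 ± 0.16, adjusted p = 0.924). Nr1i3 held 79.0, 71.6 and 46.9 CPM against 53.3, 42.6 and 68.7 CPM, which overlapped too (-0.26 ± 0.23, adjusted p = 0.786). Foxa1 was higher in each oncogene library, at 26.2, 25.5 and 24.8 CPM against 21.2, 20.7 and 18.5 CPM, and its log2 fold change of 0.34 ± 0.17 was not called (adjusted p = 0.488). The other 4 members had log2 fold changes between -0.38 (Prox1) and -0.02 (Foxa3). Under a term for the runs the 9 values lay between -0.45 (Prox1) and 0.85 (Onecut1), and none was called.

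The comparison of diets in Vec livers addressed the low-protein diet without oncogenes. None of the 9 members was called by edgeR, and 0.308% of all genes were. An unadjusted p under 0.05 was reached by 5 of 9 members and by 1377 of all 13947 genes, and DESeq2 called Onecut1 (log2 fold change -1.94, adjusted p = 0.00501). In edgeR the log2 fold change of Onecut1 was -1.94 ± 0.52 (adjusted p = 0.157), and every LPD Vec library lay below every CD Vec library. Foxa2 was likewise lower in all LPD Vec libraries (-0.54 ± 0.16, adjusted p = 0.197), and it was called only without CD Vec replicate 1 (-0.70, adjusted p = 0.0499). Nr1i3 gave -0.50 ± 0.23 (adjusted p = 0.502) without overlap, and Foxa1 gave -0.44 ± 0.17 (adjusted p = 0.375) with overlap. Prox1 went the other way. It held 48.1, 70.5 and 77.8 CPM in LPD Vec against 52.5, 39.3 and 42.4 CPM in CD Vec, with 1 LPD library below the highest CD library and a log2 fold change of 0.55 ± 0.19 (adjusted p = 0.318). The median over the 9 was -0.33 against -0.03 over all genes. With a term for the runs, Onecut1 gave -2.55 (adjusted p = 0.172), Foxa2 -0.60 (adjusted p = 0.205) and Prox1 0.44 (adjusted p = 0.724), and within the second run, with 1 CD library, the values were -1.59, -0.73 and 0.805.

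In oncogene livers, LPD was compared with CD. Cebpa and Onecut1 were higher on LPD, by 1.71-fold and 3.45-fold. These were 2 of 9 members called, both higher, where 20.0% of all genes were called and 8.66% were called higher. For Cebpa, the lowest LPD library (571.3 CPM) lay above the highest CD library (417.7 CPM), and the log2 fold change of 0.78 ± 0.19 (adjusted p = 0.0126) was called in all 12 fits without 1 library. For Onecut1, the lowest LPD library (20.3 CPM) lay above the highest CD library (11.2 CPM), with a log2 fold change of 1.79 ± 0.52 (adjusted p = 0.0336). The Onecut1 call was lost without any 1 of the 3 CD c-MET/β-catenin libraries, or when replicate 1 or 3 of LPD c-MET/β-catenin was dropped, with adjusted p between 0.0775 and 0.0975 and log2 fold changes between 1.61 and 1.90, and also without the filter on low counts (adjusted p = 0.0785). With a term for the runs, Cebpa gave 0.66 (adjusted p = 0.246) and Onecut1 1.74 (adjusted p = 0.249). These values are the ratios to the single CD oncogene library of the second run and no second check.

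Nr1i3 was 1.48-fold higher on LPD in oncogene livers, with overlapping libraries (log2 fold change 0.57 ± 0.23, adjusted p = 0.105). Prox1 gave 0.38 ± 0.19 (adjusted p = 0.194), Foxa1 0.26 ± 0.17 (adjusted p = 0.3) and Foxa2 0.26 ± 0.16 (adjusted p = 0.282), the last of which was 0.0168 under a term for the runs (adjusted p = 0.982). Hnf4a, Foxa3 and Nr1i2 lay between -0.21 and 0.18. Hepatocyte markers summed to 96500 to 133000 CPM in LPD c-MET/β-catenin against 135000 to 166000 CPM on CD, with 4 of 10 called lower (Trf, Hpx, Apoa1 and Ahsg) and none higher. Their median log2 fold change was -0.003. Ttr (0.57), Apoa2 (0.38), Apoh (0.18), Fga (0.12) and Fgb (0.05) lay above 0 and Alb at -0.05, all uncalled. Means of Trf were 17560 CPM on LPD and 34830 CPM on CD. Endothelial markers summed to 273 to 336 CPM in LPD c-MET/β-catenin against 170 to 224 CPM on CD, with 3 of 7 called higher (Clec4g, Ptprb and Eng). Among those not called, Kdr (log2 fold change 1.02) and Stab2 (0.06) lay above 0, and Cdh5 (-0.18) and Pecam1 (-0.11) below it. Of 8 stellate and fibroblast markers, 2 were called higher and 4 lower. Mitotic genes summed to 16.9 to 49.5 CPM in LPD c-MET/β-catenin against 124 to 179 CPM on CD, and cholangiocyte markers to 41.1 to 53.5 CPM against 121 to 382 CPM. Most of the cholangiocyte sum was again Spp1 (mean 42.4 against 253.1 CPM), Krt19 was also lower on LPD (0.987 against 5.76 CPM), and Epcam and Sox9 were not called. The part of these genes in the Cebpa and Onecut1 differences was not tested.

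**Figure D3:**
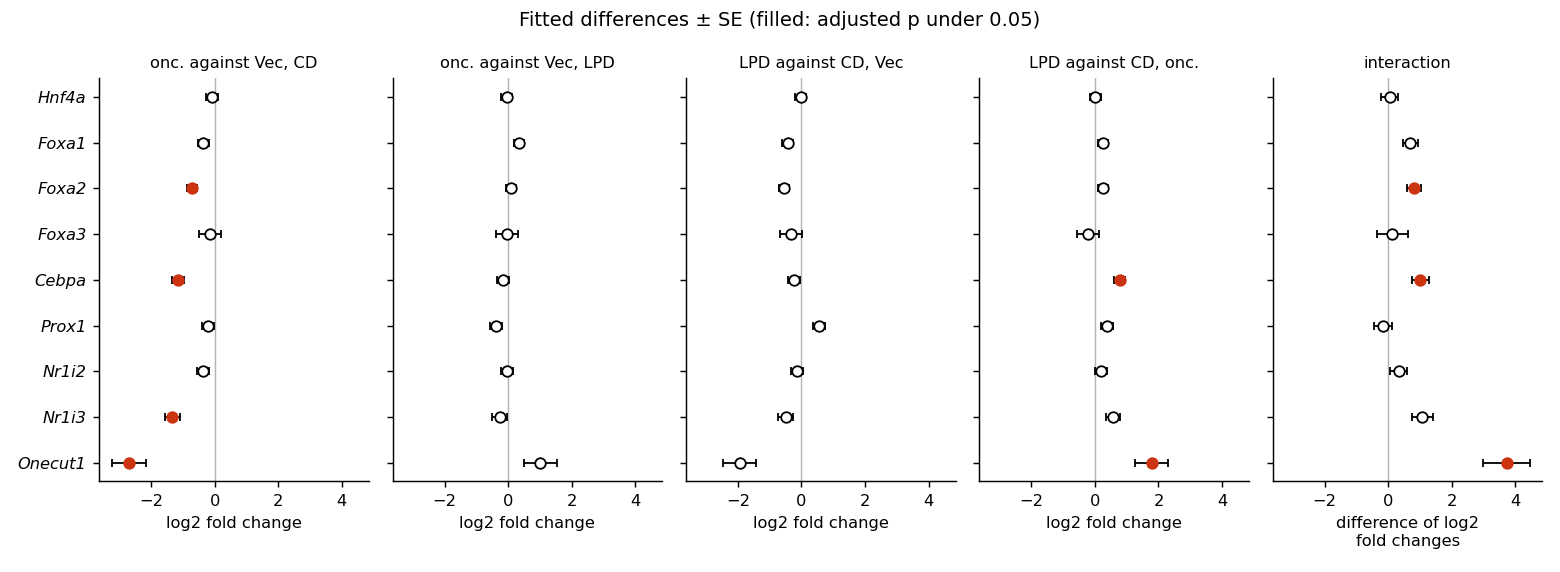
Fitted log2 fold changes ± SE of the 9 transcription factors in 4 comparisons and the injection by diet interaction; filled points have an adjusted p under 0.05 and onc. stands for c-MET/β-catenin. On CD, 4 members are filled and below 0, on LPD none is, and Onecut1, Cebpa and Foxa2 are filled and above 0 in the interaction.

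Whether the oncogene effect itself differed between diets was tested with the injection by diet interaction, which is the log2 fold change on LPD minus that on CD. Onecut1 (3.72 ± 0.74, adjusted p = 0.0147), Cebpa (1.01 ± 0.26, adjusted p = 0.0349) and Foxa2 (0.80 ± 0.22, adjusted p = 0.0468) were called, all above 0. These are 3 of 9 members, against 8.91% of all genes called and 4.49% called above 0. The interaction and the comparisons above share libraries and are not independent of each other. For Onecut1, a decrease on CD of 2.71 stood against an uncalled value of 1.02 on LPD (0.579 without LPD Vec replicate 1 and 1.65 without LPD Vec replicate 3), and the LPD Vec and CD Vec means differed as well, at 16.7 ± 11.8 and 64.0 ± 25.8 CPM. For Cebpa, -1.16 on CD stood against -0.15 on LPD. For Foxa2, -0.71 on CD stood against 0.09 on LPD, and the mean of LPD Vec (31.4 ± 1.06 CPM) was already close to that of CD c-MET/β-catenin (27.9 ± 4.51 CPM).

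The Onecut1 interaction was called in all 12 fits without 1 library. The Cebpa interaction was lost without CD Vec replicate 1 or any of the 6 LPD libraries, with adjusted p of 0.0605 to 0.0934. The Foxa2 interaction was called in only 2 of the 12 fits, those that dropped CD Vec replicate 1 or replicate 3 of CD c-MET/β-catenin. Elsewhere its value was 0.671 to 0.841, with an adjusted p of 0.0715 to 0.113. The Foxa2 call was also lost without the filter on low counts (0.798, adjusted p = 0.0545) and under scaling by total counts only (0.618, adjusted p = 0.0998). That of Cebpa was lost under total counts only (0.831, adjusted p = 0.0739) and with a replicate block (1.02, adjusted p = 0.0631). Nr1i3 gave 1.07 ± 0.32 and was not called by edgeR (adjusted p = 0.0612), although DESeq2 called it (1.06, adjusted p = 0.0267). Foxa1 gave 0.69 ± 0.23 (adjusted p = 0.0846), and 0.86 (adjusted p = 0.0285) without CD Vec replicate 1. Hnf4a, Foxa3, Prox1 and Nr1i2 lay between -0.17 and 0.33. Within the second run the interaction was 3.33 for Onecut1, 0.73 for Cebpa and 0.75 for Foxa2. With a term for the runs it was 4.29 (adjusted p = 0.0984), 0.84 (adjusted p = 0.306) and 0.62 (adjusted p = 0.3).

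Across all 4 groups at once, 5 of 9 members were called for any difference, namely Cebpa (adjusted p = 0.00298), Nr1i3 (0.0052), Onecut1 (0.0082), Foxa2 (0.018) and Prox1 (0.0412), against 31.0% of all genes. A term for the runs left 0 of 9 called, and 6.3% of all genes. With total counts as the only scaling, or without CD Vec replicate 3, only Cebpa, Nr1i3 and Onecut1 were called. Prox1 was called here without being called in any of the 4 pairwise comparisons. Its mean was highest in LPD Vec (65.5 ± 15.5 CPM) and lowest in CD c-MET/β-catenin (38.7 ± 3.80 CPM). Foxa1, Foxa3, Hnf4a and Nr1i2 were not called. Between replicates, Cebpa in LPD Vec varied least of all (coefficient of variation 1.90%) and values of Onecut1 in LPD Vec the most (70.9%).

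The patterns of the members over the 12 libraries were set side by side by the root mean square difference of their log2 CPM, each centred on its own mean. Foxa1 and Foxa2 were nearest to each other (0.19), against their own root mean squares of 0.244 and 0.305. Hnf4a and Nr1i2 followed (0.229), a distance above the root mean square of Hnf4a itself (0.183), and Cebpa and Nr1i3 stood 0.351 apart, against 0.489 and 0.55. Among 9413 other genes with a mean of at least 5 CPM, those most like Cebpa were Galm (0.114), Pcmtd1 (0.133) and Slc25a23 (0.139), against a root mean square of 0.489 for Cebpa itself. Nearest to Hnf4a were Cct7, Eif3g and Trappc5, to Foxa1 Abcc10, Rhobtb2 and Med1, to Foxa3 Itpkc, Surf2 and Phf23, to Prox1 Atrn, Fam160b1 and Pnpla7, to Nr1i2 Alb, Ttpa and Abcd4, and to Nr1i3 Adgrl1, Grik5 and Prodh2. Nearest to Onecut1 were Nrep, Zfp157 and Igfals, at 0.75 or more, against a root mean square of 1.22 for Onecut1 itself. All points share the same libraries, and the measure carries no test.

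Genes under the control of these factors were described from short textbook lists, which share members such as Pck1, Ttr and G6pc. On CD, 9 of 12 Hnf4a targets were called lower and none higher, with a median log2 fold change of -0.83, although Hnf4a itself was not called. They included Cyp8b1, a hydroxylase of bile acid synthesis (-3.01 ± 0.27, adjusted p = 2.71e-05), Otc of the urea cycle (-2.68 ± 0.34, adjusted p = 0.000167), the bile acid carrier Slc10a1 (-2.17 ± 0.18, adjusted p = 1.73e-05) and the gluconeogenic enzyme Pck1 (-1.87 ± 0.45, adjusted p = 0.0072). Of 8 Cebpa targets, 6 were lower and none higher, with a median of -1.37. The largest differences were those of Hamp, the iron hormone hepcidin (-3.79 ± 0.63, adjusted p = 0.000984), and Cps1, the entry enzyme of the urea cycle (-3.10 ± 0.48, adjusted p = 0.000577). Of 8 Foxa targets, 5 were lower and 1 higher. Tdo2, a tryptophan-degrading enzyme, was lower (-1.96 ± 0.22, adjusted p = 7.93e-05), as was the glucose carrier Slc2a2 (-1.52 ± 0.21, adjusted p = 0.000283), while Igfbp1, a secreted binding protein of insulin-like growth factors, was higher (5.48 ± 0.87, adjusted p = 0.000753).

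Targets of the remaining factors on CD went in both directions or were fewer. Of 7 Onecut1 targets, 4 were lower, namely Slc2a2, G6pc (-1.50 ± 0.54, adjusted p = 0.0486), Ttr (-0.87 ± 0.20, adjusted p = 0.00542) and Foxa2, which is itself 1 of the 9 members, as is the target Hnf4a. Of 9 Nr1i3 targets tested out of 10, 3 were lower and 2 higher, with Abcc3 (-2.24 ± 0.51, adjusted p = 0.00578) and the heme synthesis enzyme Alas1 (-2.15 ± 0.53, adjusted p = 0.00872) against Cyp2c55 (3.46 ± 0.58, adjusted p = 0.000944) and Gadd45b (3.15 ± 0.94, adjusted p = 0.0222). Of 7 Nr1i2 targets tested out of 8, Cyp3a11, the mouse counterpart of the main human drug-metabolizing P450, was lower (-1.26 ± 0.37, adjusted p = 0.0207) and Cyp2c55 was higher. For Nr1i3 and Nr1i2 targets the medians were -0.01 and 0.10. Of 13 partners and coregulators, including Rxra, the coactivator Ncoa3 was the 1 gene called, at -0.40 ± 0.14 (adjusted p = 0.0398). Under a term for the runs, where 6.78% of all genes were called on CD, the calls left in these lists were Cyp8b1, Otc, Slc10a1, Tdo2 and Hamp, all lower, and Igfbp1 and Cyp2c55, both higher, with 1 CD oncogene library behind each.

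On LPD, the oncogenes left only Cyp8b1 called among all target lists of the 9 factors (-1.48 ± 0.26, adjusted p = 0.0153), and the medians of these lists lay between -0.24 and 0.51. In oncogene livers, LPD against CD raised 5 of 12 Hnf4a targets and lowered 1. Cyp8b1 (1.92 ± 0.26, adjusted p = 0.000886), Slc10a1 (1.68 ± 0.17, adjusted p = 0.000305) and Otc (1.47 ± 0.33, adjusted p = 0.0094) were higher, and Apoa1 was lower (-0.86 ± 0.25, adjusted p = 0.0325). Of Cebpa targets 3 were higher, namely Hamp (3.57 ± 0.63, adjusted p = 0.00339), Cps1 (1.54 ± 0.46, adjusted p = 0.0337) and the liver glycogen synthase Gys2 (0.77 ± 0.25, adjusted p = 0.0453), and the tyrosine-degrading enzyme Tat was lower (-0.97 ± 0.30, adjusted p = 0.0377). Foxa targets gave 3 higher and 2 lower, with Tdo2 (1.61 ± 0.22, adjusted p = 0.000886) and Igfbp1 (-3.62 ± 0.80, adjusted p = 0.0098) at the extremes. Among Nr1i2 targets, Cyp3a11 was higher (1.64 ± 0.38, adjusted p = 0.0109) and Gsta1 (-3.73 ± 0.93, adjusted p = 0.0157) and Slco1a4 (-2.88 ± 0.36, adjusted p = 0.000614) were lower. Slc2a2 was the only Onecut1 target called (1.06 ± 0.21, adjusted p = 0.00528), and no Nr1i3 target was called. Ppargc1a, a coactivator of Hnf4a and of gluconeogenic genes, was the only partner called (-1.12 ± 0.30, adjusted p = 0.0229).

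The interaction was called above 0 for 3 Hnf4a targets (Otc at 2.48 ± 0.46, Cyp8b1 at 1.54 ± 0.36 and Slc10a1 at 1.43 ± 0.24, adjusted p between 0.00723 and 0.0246). It was also called for Hamp (3.56 ± 0.83, adjusted p = 0.0256), Cps1 (2.72 ± 0.64, adjusted p = 0.0262), Tdo2 (1.79 ± 0.30, adjusted p = 0.00726) and Alas1 (3.50 ± 0.74, adjusted p = 0.0184), and below 0 for Igfbp1 (-4.62 ± 1.07, adjusted p = 0.0258). No Nr1i2 target was called, and the only Onecut1 target called was Foxa2. Hamp was the only target still called in the interaction with a term for the runs, where 0.609% of all genes were and 1 library stood for CD c-MET/β-catenin. For diet in oncogene livers with that term, Slc10a1, Tdo2, Hamp, Gsta1 and Slco1a4 were still called, and 4.43% of all genes.

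**Figure D4:**
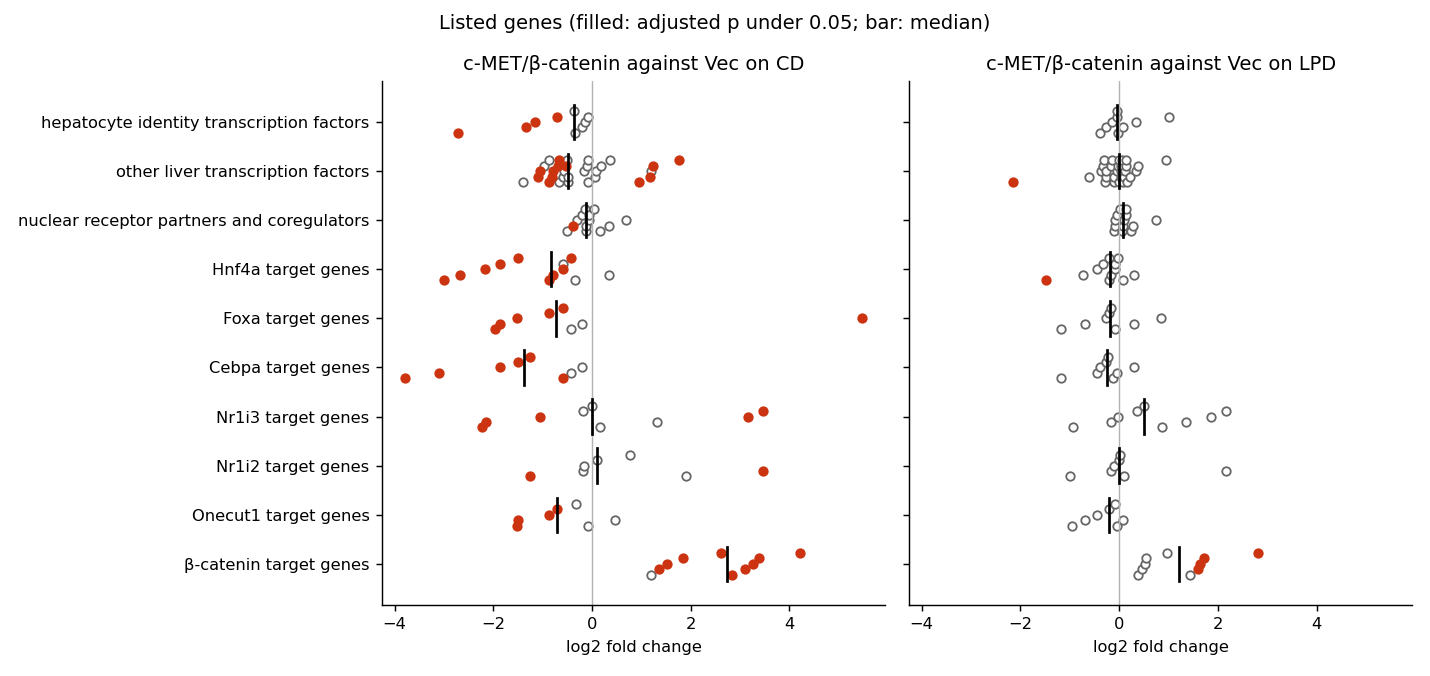
Log2 fold change between oncogene and Vec livers, by diet, for the 9 transcription factors and the lists of related genes; each point is a gene, filled points have an adjusted p under 0.05 and bars are list medians. On CD the target lists of Hnf4a, Foxa, Cebpa and Onecut1 have medians of -0.71 or lower, and on LPD these medians lie between -0.24 and -0.18.

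Another 30 liver transcription factors gave a mixed picture on CD, with 8 lower and 4 higher and a median log2 fold change of -0.50. Nr1h4, the bile acid receptor FXR, was lower (-1.10 ± 0.18, adjusted p = 0.000685), as was Mlxipl, the carbohydrate response factor (-1.06 ± 0.26, adjusted p = 0.00754), named here after its values were seen. Ahr, the aryl hydrocarbon receptor, was higher (1.77 ± 0.24, adjusted p = 0.000262), as were Cebpd, an acute phase relative of Cebpa (1.23 ± 0.45, adjusted p = 0.0494), and the zinc finger factor Gata6 (1.18 ± 0.21, adjusted p = 0.00134). On LPD only Bcl6, a repressor of lipid and sex-biased genes, was called (-2.15 ± 0.25, adjusted p = 0.00182). In oncogene livers 7 of the 30 were higher and 1 lower on LPD than on CD, with Ahr lower (-1.50 ± 0.24, adjusted p = 0.00191) and Mlxipl (1.04 ± 0.26, adjusted p = 0.0154), Nr1h4 (0.96 ± 0.18, adjusted p = 0.0038) and Nr2f2 (0.90 ± 0.26, adjusted p = 0.0288) higher. Under a term for the runs, the calls left among the 30 were Ahr and Creb3l3 on CD, Bcl6 on LPD and Creb3l3 for diet in oncogene livers. The counts of these lists stand against the shares of all genes called given above, and no test compared a list with other genes.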

How the data were processed

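Bulk RNA-seq was performed on livers of 12 mice, 3 in each of 4 groups, and libraries were assigned by the titles in the labels. The deposited values are integer read counts per gene. Per the authors' methods and the submitters' processing notes, reads were aligned to mm10 with HISAT2, counted with featureCounts and tested with DESeq. Versions, the strand setting and the treatment of multiply mapped reads are not given in the sources used here, so counts of overlapping genes are uncertain. The labels name ribosomal RNA depletion, whereas the study's methods name a stranded mRNA kit. The columns write HPD for samples that the labels call chow, and chow was kept.

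Of 27179 genes, 25275 were matched to symbols with RefSeq (GRCm38.p6) and 18 with GENCODE M21. Lengths are summed GENCODE M21 exons. A gene at 1 CPM has 19.48 counts in the smallest library. In R 4.3.3, edgeR 4.0.16 fitted all 4 groups at once without a covariate (TMM factors 0.864 to 1.12, filterByExpr, robust quasi-likelihood, biological coefficient of variation 23.2%). SE is the absolute log2 fold change over the root of F. The script was tested on simulated data. No pair of replicates agreed within sampling noise.

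The members and lists were chosen with earlier results of these data known. The text names all 9 members, per list and comparison the called genes with the 4 largest absolute log2 fold changes, and for each member the 3 genes most like it, except that those of Foxa2 are not reported here. Overlapping genes and further list examples were named after their values were seen. Alternatives were DESeq2 1.42.0, its size factors in edgeR, total counts only, no filter, a replicate block, a term for the runs of header numbers, only the 2 groups compared in the fit, leaving out each library, and the longest transcript as length.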

Additional observations from a re-analysis of the deposited data

Results flagged for a closer look

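The injection by diet term of edgeR's quasi-likelihood test was called for 3 of the 9 transcription factors. It asks whether the effect of c-MET/β-catenin against Vec differed between LPD and CD. Of all genes tested, 8.91% were called and 4.49% were called above 0. The difference of log2 fold changes was 3.72 for Onecut1 (adjusted p = 0.0147), 1.01 for Cebpa (adjusted p = 0.0349) and 0.80 for Foxa2 (adjusted p = 0.0468). In each, the difference on CD was below 0 in all 3 oncogene libraries against all 3 Vec libraries. On LPD the libraries of Onecut1 and Foxa2 overlapped and those of Cebpa did not. Without 1 library, the interaction was called in all 12 fits for Onecut1, in 5 for Cebpa and in 2 for Foxa2. A term for the runs, which leaves 1 CD c-MET/β-catenin library, gave 4.29 for Onecut1, 0.841 for Cebpa and 0.615 for Foxa2.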

How the results depend on the processing

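The 4 members called on CD were called with DESeq2, its size factors in edgeR, total counts only, no filter, a replicate block and in all 12 fits without 1 library. With a term for the runs of header numbers, only Nr1i3 was (1 member), where 6.78% of all genes were called instead of 35.4%. That term left 0 members called for any difference (6.3% of all genes), for diet in oncogene livers (4.43%) and for the interaction (0.609%). It spends residual degrees of freedom on runs that overlap the groups, and the cause of the lost calls was not tested. Total counts only gave 3 members called for any difference and 1 (Onecut1) for the interaction, where 4926 and 1271 of all 13947 genes were called. It shifted the median of all genes on CD to 0.28 and the share of calls that were higher from 52.8% to 78.8%, and that share from 50.4% to 29.0% in the interaction. DESeq2 called 1 member for diet in Vec livers (Onecut1), and all genes called there numbered 340 against 43. Without a filter, 1 member (Cebpa) was called for diet in oncogene livers, and Foxa2 lost its interaction call (0.798, adjusted p = 0.0545). Leaving out 1 library gave 3 to 6 members for any difference, 0 to 1 for diet in Vec livers, 1 to 2 for diet in oncogene livers and 1 to 3 for the interaction. Numbers of all genes called in these fits are not given here. Without CD Vec replicate 3, 3 members were called for any difference (Cebpa, Nr1i3 and Onecut1).

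Signs turned only for values that were not called. With total counts only, Hnf4a became 0.205 on CD, 0.0698 on LPD, 0.0758 for diet in Vec, -0.0595 for diet in oncogene livers and -0.135 for the interaction. Foxa3 became 0.161 on CD, 0.0836 on LPD and -0.0776 for the interaction, Prox1 0.0748 on CD and Nr1i2 0.0787 on LPD. With the term for the runs, Hnf4a became 0.103 on CD, 0.0606 on LPD, 0.0671 for diet in Vec and -0.0422 for the interaction, Foxa3 0.0416 and Nr1i2 0.0729 on LPD, and Prox1 0.109 for the interaction. Without 1 library, Hnf4a ran from -0.2 to 0.123 on CD, -0.13 to 0.0681 on LPD, -0.142 to 0.186 for diet in Vec, -0.0415 to 0.112 for diet in oncogene livers and -0.173 to 0.155 for the interaction. Foxa3 ran from -0.482 to 0.474 on CD, -0.113 to 0.0754 on LPD, -0.664 to 0.291 for diet in Vec and -0.501 to 0.454 for the interaction. Nr1i2 ran from -0.158 to 0.158 on LPD.

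The labels do not state that a replicate number is a litter or a day. Correlations of same-numbered deviations ran from -0.183 to 0.167 and 2 of 18 exceeded 0.1. With groups of 3, these values cannot decide whether the numbers pair the libraries. With a replicate block, 4 members were called for any difference, 4 on CD, 0 on LPD, 0 for diet in Vec, 2 for diet in oncogene livers and 2 for the interaction (Foxa2 and Onecut1), where Cebpa was lost (adjusted p = 0.0631). Of all 13947 genes, the block called 3728, 4520, 151, 16, 2380 and 812 in the same order. The main fit called 1243 in the interaction. Groups of 3 libraries limit the precision, and genes under 1 CPM were not resolved well at this depth.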

Other observations

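Of the 30 other liver transcription factors, 2 were raised by LPD in Vec livers, where none of the 9 identity factors was called. Atf5, a factor of the amino acid stress response, had a log2 fold change of 1.53 ± 0.18 (adjusted p = 0.00987), and Bcl6 of 1.66 ± 0.25 (adjusted p = 0.0227). Both also had an interaction below 0, at -1.25 ± 0.26 (adjusted p = 0.0152) for Atf5 and -1.67 ± 0.35 (adjusted p = 0.0165) for Bcl6. The interaction was further called for Ahr (-2.14 ± 0.34, adjusted p = 0.00564) and Gata6 (-1.13 ± 0.30, adjusted p = 0.0374) below 0, and above 0 for Creb3l3, Gata4, Nr1h4 and Esrra, at 0.90 to 0.96. Of the Nr1i2 targets, the organic anion carrier Slco1a4 was the only gene called between diets in Vec livers (-2.05 ± 0.34, adjusted p = 0.0328). Under a term for the runs, Atf5 and Slco1a4 were still called between diets in Vec livers, Bcl6 was not, and none of these 30 factors was called in the interaction.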
